A study of Mus musculus with 41 samples.

Results

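The inflammatory cytokines described here are 10 genes: Il1a, Il1b, Il1rn and Il18 of the interleukin-1 family, Tnf, the interleukin-6 family members Il6 and Osm, Il12b, Ifng and Il10. They were taken as every spot whose gene name on the array equals 1 of these symbols, so that no measured value chose them. They lay on 77 spots of 14 probes, among 41174 probes and 27962 gene names other than controls. RNA came from parts of the lung and the liver of female C57BL/6 mice (C57BL/6BomTac in the methods) that had inhaled surface-coated rutile nanoTiO2 through the whole body for 1 hr per day on 11 days (40 mg/m3 in the labels, 42.4 mg/m3 in the methods), and from control (air exposed) mice kept on filtered air. All of the animals were sacrificed 5 days after the last exposure. The methods describe them as time-mated adults that were not pregnant, and the labels give age only as an equivalent of a gestation day. The lung arrays held 7 exposed and 6 control mice and the liver arrays 7 exposed and 8 control mice, with 1 mouse on each array, and 12 mice gave both tissues. The study asked whether inhaled particles change gene expression in the lung and beyond it.

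Interleukin-1 alpha and beta are alarm cytokines that act through one receptor, and the product of Il1rn occupies that receptor without activating it. Interleukin-1 beta and interleukin-18 are made as precursors that caspase-1 cleaves in the inflammasome. TNF, like interleukin-1, switches on NF-kB, whereas interleukin-6, oncostatin M, interleukin-10, interleukin-12 and interferon gamma act through JAK kinases and STAT factors. In the lung alveolar macrophages and recruited neutrophils are common sources of the first group, T cells and NK cells make interferon gamma, and in the liver interleukin-6 and oncostatin M drive hepatocytes to make acute-phase proteins. Whole tissue was measured, so fewer cells of a type and less RNA per cell cannot be told apart.

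On each array the mouse RNA carried Cy5 and a universal reference RNA, pooled from 11 mouse cell lines, carried Cy3, without a dye swap. A level is therefore the log2 ratio of mouse RNA over reference for 1 probe, and the levels of different probes cannot be ranked against each other. By the scanner software's own call of a spot as well above background, the median array of exposed lung passed at 66.3% of its Cy5 spots and that of control lung at 62.9%, while the liver medians were 63.6% (exposed) and 61.4% (control). Exposed samples sat at positions 1 to 2 and control samples at positions 3 to 4 of the slides, so position and exposure cannot be told apart. Slide 4 of the lung held 2 exposed and 0 control mice and gives no value within the slide. Lung and liver were on separate slides and were read with different software versions, so tissue and slide set cannot be told apart. All 7 lung cell markers were called higher in control lung and all 6 measured hepatocyte markers higher in control liver (Serpina1a was not named on the array), as the tissue labels say. The number of arrays limits the precision.

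For each gene the probe with the highest mean Cy5 signal is reported. Every value below is the signal of 1 such 60-base oligo, printed on 10 spots for Il1b, Tnf, Il6, Il12b, Il18 and Il10 and on 1 spot for the others. The first 30 bases are given for the 8 probes whose lung difference had an unadjusted p under 0.05 or whose lung and liver levels differed, since these letters decide what the signal can bind. Positions are those of the lung scanner files, which name the build mm7. All but that of Il18 lay in 1 unbroken stretch, and the Il18 probe spanned 2129 bases of genome, so that it crosses an intron and reads spliced RNA.
Il1b, chr2:129105464-129105523, minus strand: aggttcctataatatggatgagaattttta
Il1rn, chr2:24357916-24357975, plus strand: tttcttgaccattcattttatcacttctaa
Il18, chr9:50557947-50560075, plus strand: tgaaggatagtaaaatgtctaccctctcct
Tnf, chr17:33296067-33296126, minus strand: tgggctttccgaattcactggagcctcgaa
Il6, chr5:29052734-29052793, plus strand: atattctgttacctagccagatggtttctt
Il12b, chr11:44370372-44370431, plus strand: gctcttcaatcagggcttcgtaggtacatt
Ifng, chr10:117841087-117841146, plus strand: cttccctatacagctgaaaactgtgactac
Il10, chr1:130928485-130928544, plus strand: ggaaaacctcgtttgtacctctctccgaaa

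Which cytokines gave a signal differed by tissue and group. Il1b, Il1rn and Il18 were well above background in Cy5 on all 28 arrays. Tnf and Ifng were above it on all 13 lung arrays, and on 11 of 15 liver arrays each. Osm was above it on 12 lung and 12 liver arrays, whereas Il1a, whose reported probe was dim throughout, reached it on 6 lung and 7 liver arrays. Il10 was above background on 0 of 13 lung arrays and on 8 of 15 liver arrays.

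Il12b, the shared chain of interleukin-12 and interleukin-23, and Il6 passed the detection call on some exposed lung arrays and on no control lung array. Each was well above background on 5 of 7 exposed and 0 of 6 control lung arrays. Of all probes on the array, 0.0923% showed that pattern (5 or more exposed and 0 control arrays), and 0.00243% the opposite one (4 or more control and 0 exposed arrays). Spot by spot, 75.7% of the 70 Il12b spots on exposed arrays were well above background, against 3.3% of 60 spots on control arrays. For Il6 the shares were 65.7% and 6.7%. Exposed lung arrays also had the higher share of all spots above background, as given above, and its part in these counts was not tested. For each gene the passing arrays numbered 1, 0, 2 and 2 on slides 1 to 4, and slide 4 held 0 control mice. The Il6 call did not follow the normalized Cy5 level (log2). Exposed mouse 19 passed at 5.93, while exposed mice 12 and 7 did not pass at 6.34 and 6.24. The Il6 log2 ratio differed by 0.06 between the lung groups (unadjusted p = 0.38 from limma). In the liver Il12b was above background on no array.

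**Figure D1:**
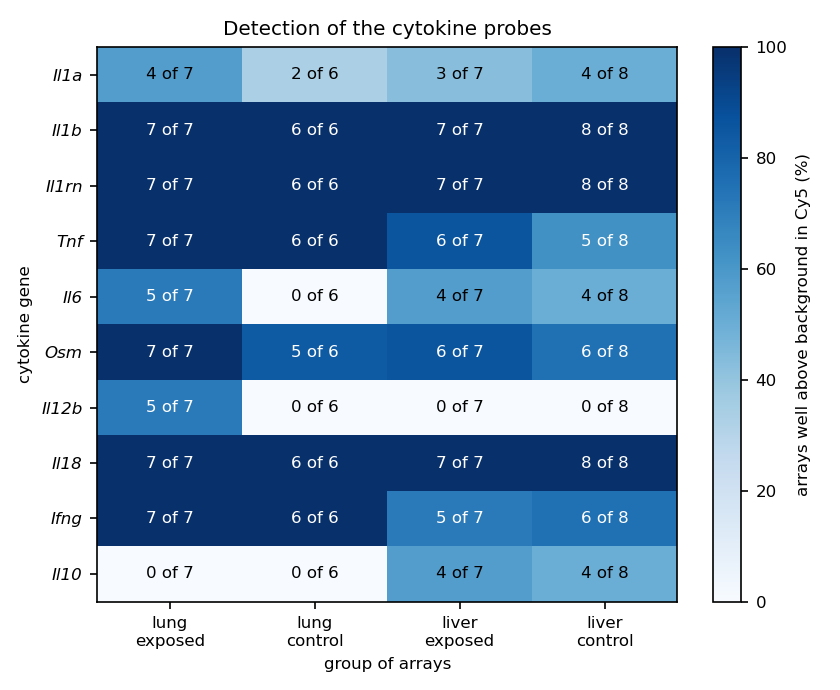
Number of arrays on which the reported probe of each cytokine (vertical axis) was well above background in Cy5, for the 4 groups of arrays (horizontal axis); the shade gives the share in percent. Il12b and Il6 stand at 5 of 7 in exposed lung and 0 of 6 in control lung, and Il10 is detected in liver only.

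No cytokine was called in the lung. Of the 10 genes, 6 were higher and 4 lower in exposed than in control mice, with a median log2 difference of 0.02, against 0.0013 over all probes, and the lowest adjusted p was 0.188 (limma, Benjamini-Hochberg over 41172 probes). Over all probes 0.221% were called, 0.199% higher and 0.0219% lower. At an unadjusted p under 0.05 there were 4 of the 10 genes, Il1rn, Tnf and Il12b higher and Il18 lower, where 7.07% of all probes passed, 3.7% higher and 3.37% lower. The exposed and control values overlapped for all 10, while 0.396% of all probes had groups that did not overlap. In simulated data of the lung comparison 36.7% of added log2 shifts of 0.25 were called, so most shifts of that size were missed.

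**Figure D2:**
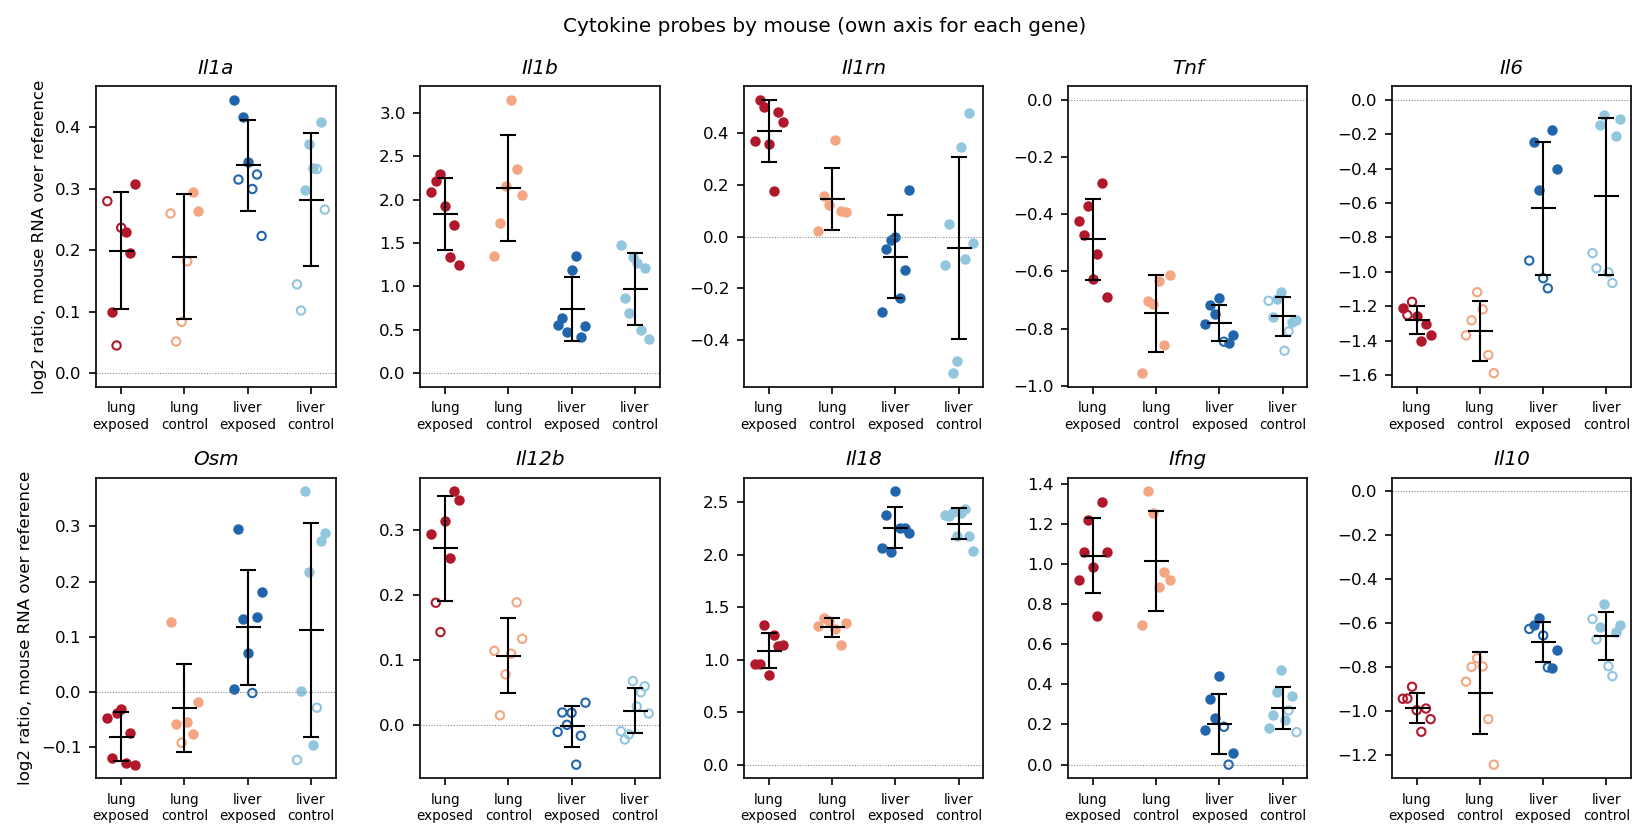
The log2 ratio of mouse RNA over reference (vertical axis, a separate scale for each gene) in each mouse of the 4 groups (horizontal axis); points are mice, open points are arrays on which the probe was not well above background, and bars are the mean ± SD. Il1rn, Tnf and Il12b sit higher and Il18 lower in exposed than in control lung with overlap, and liver Il6 falls into 2 separate bands in both groups.

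Il1rn, the natural antagonist of interleukin-1, had the lowest lung p of the 10. Its log2 ratio ran from 0.18 over a median of 0.44 to 0.53 in exposed lung and from 0.02 over 0.11 to 0.37 in control lung. The means were 0.41 ± 0.12 (SD, n = 7) and 0.14 ± 0.12 (SD, n = 6). All 7 exposed mice lay above the control mean and 4 of them above every control mouse. The difference of 0.26 (SE 0.06, 95% interval 0.13 to 0.40, 1.20-fold) had an unadjusted p of 0.00088 and an adjusted p of 0.188 in limma. An exact 2-sided permutation test over the 1716 splits of the mice gave p = 0.00524. Within slides 1, 2 and 3 the difference was 0.36, 0.26 and 0.17. With the scanner software's processed signals, median centred, the difference was 0.53 (adjusted p = 0.092 from limma), and with outlier spots kept in the background model it was 0.11 (unadjusted p = 0.255). A second Il1rn probe was not well above background on any array.

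Il1b varied more between mice than it differed between groups. In exposed lung the log2 ratio ran from 1.25 over 1.93 to 2.29 and in control lung from 1.35 over 2.11 to 3.16, the highest in mouse 29. The lung difference was -0.30 (95% interval -0.83 to 0.23, adjusted p = 0.828 from limma), and 2 of 7 exposed mice lay above the control mean. The SD between mice, 0.41 in exposed and 0.61 in control lung, stood at the 98.7 and 99.6 percentile of all probes, and the 10 spots of an array differed by a median SD of only 0.08. Within slides 1, 2 and 3 the difference was 0.61, -0.36 and -0.57, and with slide as a term it was -0.07. Without control mouse 29 it was -0.10 and without control mouse 24 it was -0.46, and outlier spots kept in the background model gave -0.78 (adjusted p = 0.606 from limma).

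Il18, made as a precursor in epithelium and macrophages, was the single cytokine with an unadjusted p under 0.05 and a lower value in exposed lung. Its log2 ratio ran from 0.85 over 1.13 to 1.33 in exposed and from 1.13 over 1.33 to 1.39 in control lung, and 4 of 7 exposed mice lay below every control mouse. The difference of -0.22 (SE 0.07, 1.17-fold lower) had an unadjusted p of 0.00808, an adjusted p of 0.478 in limma and an exact permutation p of 0.0198. It was -0.40, 0.0037 and -0.20 within slides 1, 2 and 3. The difference was -0.46 with outlier spots kept in the background model (adjusted p = 0.606) and -0.14 with median centring (unadjusted p = 0.498). Il1a, an alarmin set free by damaged cells, ran from 0.05 over 0.23 to 0.31 in exposed and from 0.05 over 0.22 to 0.29 in control lung. It differed by 0.01 (95% interval -0.11 to 0.13) and its second probe by -0.03. With the processed signals, median centred, the Il1a difference was 0.94 (unadjusted p = 0.0154, adjusted p = 0.596 from limma), outside that interval.

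Tnf, the macrophage cytokine that acts through NF-kB, ran from -0.69 over -0.47 to -0.29 in exposed lung and from -0.96 over -0.71 to -0.61 in control lung. All 7 exposed mice lay above the control mean and 5 above every control mouse. The difference of 0.26 (SE 0.07, 95% interval 0.11 to 0.41, 1.20-fold) had an unadjusted p of 0.00256, an adjusted p of 0.308 in limma and an exact permutation p of 0.00758. It was 0.38, 0.30 and 0.15 within slides 1, 2 and 3, and 0.77 with the processed signals, median centred (adjusted p = 0.361). By PCR array, another measure, the paper reports a significant rise of Tnf in exposed lung, which its discussion calls marginal. It reports no change there for Il6, Il1b and Ifng.

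Il6 and Osm, which signal through the shared gp130 receptor, had small differences on the ratio scale. For Il6 the difference was 0.06 (95% interval -0.08 to 0.21), although the background-subtracted Cy5 signal ran from 12.7 over 20 to 20.8 in exposed and from 8.6 over 11.3 to 15.4 in control lung. Because no control array was above background, no fold is given for Il6. In Cy5 alone its measured difference was 0.04 on the log2 scale (unadjusted p = 0.67 from limma). Osm ran from -0.13 over -0.07 to -0.03 in exposed and from -0.09 over -0.06 to 0.13 in control lung. The difference was -0.05 (95% interval -0.14 to 0.03), with 0 of 7 exposed mice above the control mean. Control mouse 24 stood highest at 0.13, where the other control mice did not exceed -0.02. The second Osm probe, at 0.07 (unadjusted p = 0.101), was not well above background in Cy5 on any array.

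Il12b ran from 0.14 over 0.29 to 0.36 in exposed lung and from 0.02 over 0.11 to 0.19 in control lung, with all 7 exposed mice above the control mean and 5 above every control mouse. The difference of 0.17 (SE 0.04, 1.12-fold) had an unadjusted p of 0.00175, an adjusted p of 0.263 in limma and an exact permutation p of 0.0035. Since the control arrays were not above background, only a bound holds, which is set in Cy5 alone, where the measured difference was 0.19 on the log2 scale. As a point value without sampling error, and under the reported processing, this bound is at least 1.12-fold. It sets the mean Cy5 level of all 7 exposed arrays, after loess and Aquantile, against a floor for the control arrays. That floor is the lowest signal well above background on each control array, or the probe's own signal where that was higher. Of the exposed arrays 5 were above background. For the log2 ratio the 95% interval of the difference was 0.07 to 0.26 (1.05-fold to 1.20-fold). Within slides 1, 2 and 3 the difference was 0.18, 0.05 and 0.13. The reference RNA was above background for Il12b on 0 of 28 arrays, and an offset of 50 was added to both channels of every spot. With the processed signals, which carry no such offset and were median centred without loess, the difference was 1.53 (adjusted p = 0.036 from limma) for Il12b and 0.93 (adjusted p = 0.036) for Il6, and both were then called. Which of these steps made the difference was not tested. With outlier spots kept in the background model the differences were 0.08 for Il12b and 0.40 for Il6, neither called. Of the other 8 genes, no alternative called any in the lung.

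Ifng and Il10 stood apart from these. Ifng, the T and NK cell cytokine, ran from 0.74 over 1.06 to 1.31 in exposed lung and from 0.69 over 0.94 to 1.36 in control lung. It differed by 0.03 (95% interval -0.20 to 0.26) and its second probe by 0.04 (95% interval -0.08 to 0.15). At the reported probe the exposed lungs thus lay inside the range of the controls, and at the second probe 1 exposed mouse lay above it. Il10, the anti-inflammatory member, was not well above background in either lung group, so that no fold is given, and its measured difference was -0.07 (95% interval -0.22 to 0.08).

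**Figure D3:**
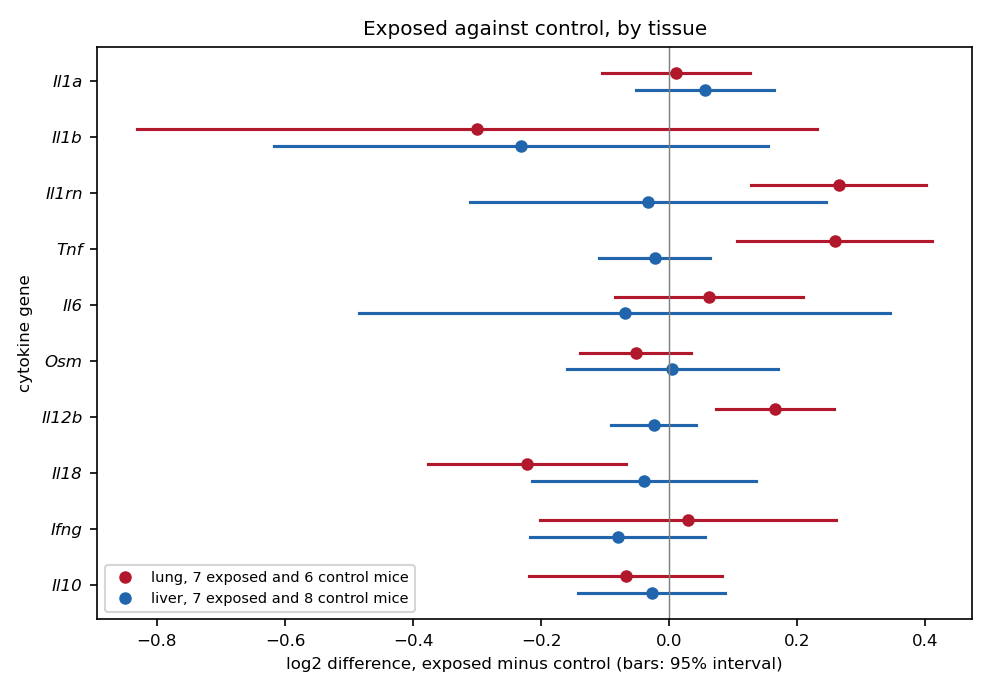
Log2 difference of exposed minus control mice (horizontal axis) for each cytokine (vertical axis) in lung (7 exposed and 6 control mice) and liver (7 and 8), with bars giving the 95% interval. The lung intervals of Il1rn, Tnf and Il12b lie above 0 and that of Il18 below it, and every liver interval spans 0; no difference passed the adjusted threshold.

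The reference channel served as a check, since the same RNA was on every array. In Cy3 alone exposed and control lung arrays differed by -0.0032 for Il1rn, -0.04 for Tnf, 0.03 for Il12b and 0.04 for Il18, none of them at an unadjusted p under 0.05. In Cy5 alone the differences were 0.26, 0.22, 0.19 and -0.19, each at an unadjusted p under 0.05. For Il12b the reference RNA was above background on 0 of 28 arrays, so its Cy3 value is no check.

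In the liver 0 of the 10 genes were called, and 0% of all 41174 probes was called by limma. None of the 10 reached an unadjusted p under 0.05, as 2.53% of all probes did, and none had groups that did not overlap, as 0.0243% of all probes had, and 2 genes were higher and 8 lower in exposed mice with a median of -0.03. Il12b was above background on no liver array, so that no fold is given. The intervals were -0.11 to 0.06 for Tnf, -0.14 to 0.09 for Il10 and -0.05 to 0.16 for Il1a, which were above background on 11, 8 and 7 of 15 arrays. With the processed signals the SE was 0.24 for Tnf, 0.39 for Il10 and 0.40 for Il1a, in place of 0.04, 0.05 and 0.05, so these intervals do not show that the levels were alike. The intervals were wider for Il1b (-0.62 to 0.15) and Il6 (-0.48 to 0.35). Of the 4 second probes 0 were called, and that of Il1rn, not above background on any array, had a difference of -0.11 (unadjusted p = 0.0384). Tnf ran from -0.85 over -0.78 to -0.69 in exposed and from -0.88 over -0.76 to -0.67 in control liver. Il1b ran from 0.41 over 0.56 to 1.35 in exposed and from 0.39 over 1.04 to 1.48 in control liver, so that its spread between mice was again wide, at the 97.3 and 98.1 percentile of all probes. Il1rn spread widely in control liver, from -0.53 over -0.06 to 0.48 (96.9 percentile), and less in exposed liver, from -0.29 over -0.05 to 0.18 (72.1 percentile); that contrast was not tested. Il18 ran from 2.02 over 2.25 to 2.60 in exposed and from 2.03 over 2.37 to 2.43 in control liver, and the groups overlapped.

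Liver Il6 separated by slide and not by exposure. On slides 1 and 3 its log2 ratio lay between -1.10 and -0.89, with 0 of 7 arrays well above background. On slides 2 and 4 it lay between -0.53 and -0.09, with 8 of 8 arrays above it. Each of the 4 slides held both exposed and control mice. The background-subtracted Cy5 signal was 7.8 to 16.8 on the first pair and 56.6 to 108.7 on the second. The 4 slides differed for Il6 at an adjusted p of 1.53e-06 (limma F test over slides), where 17.3% of all probes differed between liver slides and 4.89% between lung slides.

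Osm was called between liver slides as well (adjusted p = 0.00721), from -0.12 to 0.07 on slides 1 and 3 and from 0.13 to 0.36 on slides 2 and 4. All 8 liver arrays with Il10 above background were on slides 2 and 4, which also held 8 of the 11 arrays with Tnf above it. On these slides 63.2% to 70.5% of all spots were above background, against 55.1% to 59.5% on slides 1 and 3. With slide as a term the exposure difference of liver Il6 was -0.12 (unadjusted p = 0.0527) in place of -0.07. Within slides 2 and 4, where Il6 was above background, it was -0.27 and -0.13. No cytokine was called between lung slides.

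Whether the exposure effect differed between the tissues was tested over all 28 arrays. No cytokine was called, where 0.141% of all probes were called (limma). Il12b had a lung effect 0.19 above its liver effect (95% interval 0.09 to 0.29, unadjusted p = 0.000643, adjusted p = 0.255) and Tnf one 0.28 above it (95% interval 0.12 to 0.45, unadjusted p = 0.00157, adjusted p = 0.44). They were the 2 of 10 genes with an unadjusted p under 0.05, which 4.39% of all probes had. With the processed signals, median centred, the Il12b effect differed by 1.58 at an adjusted p of 0.00329 and the Tnf effect by 0.76 (unadjusted p = 0.0293). For the other 8 genes the interval of this difference included 0, and for Il1b it reached from -0.73 to 0.59.

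Control mice gave the tissue levels of the cytokines. Between control lung and control liver 5 of the 10 genes were called, 2 higher in lung and 3 higher in liver, where 58.2% of all probes were called, 29.7% higher in lung and 28.5% higher in liver. The groups did not overlap for 3 of the 10, against 40.9% of all probes. Both shares lie near or under those of the array as a whole.

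Ifng and Il1b were higher in lung. Ifng ran from 0.69 over 0.94 to 1.36 in control lung and from 0.16 over 0.26 to 0.47 in control liver, a 1.66-fold difference with no overlap (log2 0.73, adjusted p = 1.61e-06 from limma), and its second probe was 0.39 higher as well. The Ifng difference was 2.38 with the processed signals, median centred (adjusted p = 0.000143), and the reference RNA was above background for the reported probe on 2 of 28 arrays. Il1b was 2.24-fold higher (log2 1.16, adjusted p = 0.000434), with control liver from 0.39 over 1.04 to 1.48 and 5 of 6 control lungs above every control liver. Against the control livers of slide 1 alone, 2 arrays, the Il1b difference of 0.96 was not called (adjusted p = 0.0578). In each gene the 4 groups ranked lung above liver, and exposed and control mice did not differ beyond their spread.

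Il18, Il6 and Il10 were higher in liver. Il18 ran from 1.13 over 1.33 to 1.39 in control lung and from 2.03 over 2.37 to 2.43 in control liver, 1.98-fold apart without overlap (log2 -0.98, adjusted p = 6.97e-10). When the background was modelled with outlier spots kept in, the Il18 difference of -0.58 was no longer called (adjusted p = 0.111). Il6 was higher in liver with a log2 difference of -0.78 (adjusted p = 0.000908), and of -0.52 in Cy5 alone (adjusted p = 0.0139 from limma). No control lung was above background, so that no fold is given. The size of the Il6 difference depended on the slide. Against the control livers of slide 2 or slide 4 alone it was -1.23 and -1.18, both called, whereas on slides 1 and 3 neither the control livers nor the control lungs were above background, so that no difference is given. Il10 was higher in liver with a log2 difference of -0.26 (adjusted p = 0.00716), and no fold is given, since no control lung was above background. Against single slides Il10 was called for slide 2 (-0.35) and not for slide 4 (-0.29). On slides 1 and 3 it too was below background in both tissues. With the processed signals, median centred, the tissue difference was -2.32 for Il6 (adjusted p = 0.0123) and -1.58 for Il10 (adjusted p = 0.00104).

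The remaining 5 genes were not called between the tissues. Il12b was above background on 0 of 6 control lung and 0 of 8 control liver arrays, so that no fold is given. Its measured difference was 0.08 (adjusted p = 0.0627), and 0.10 without control lung 26 (adjusted p = 0.0289). Tnf differed by 0.01 (95% interval -0.11 to 0.13), Il1a by -0.09, Il1rn by 0.19 and Osm by -0.14. Osm was called against the control livers of slide 2 (-0.32) and slide 4 (-0.31), where its liver values were high, and Il1rn against those of slide 2 (0.65). For Tnf, Il1rn and Il12b the highest mean of the 4 groups was in exposed lung, and for Il1a and Osm in exposed liver.

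**Figure D4:**
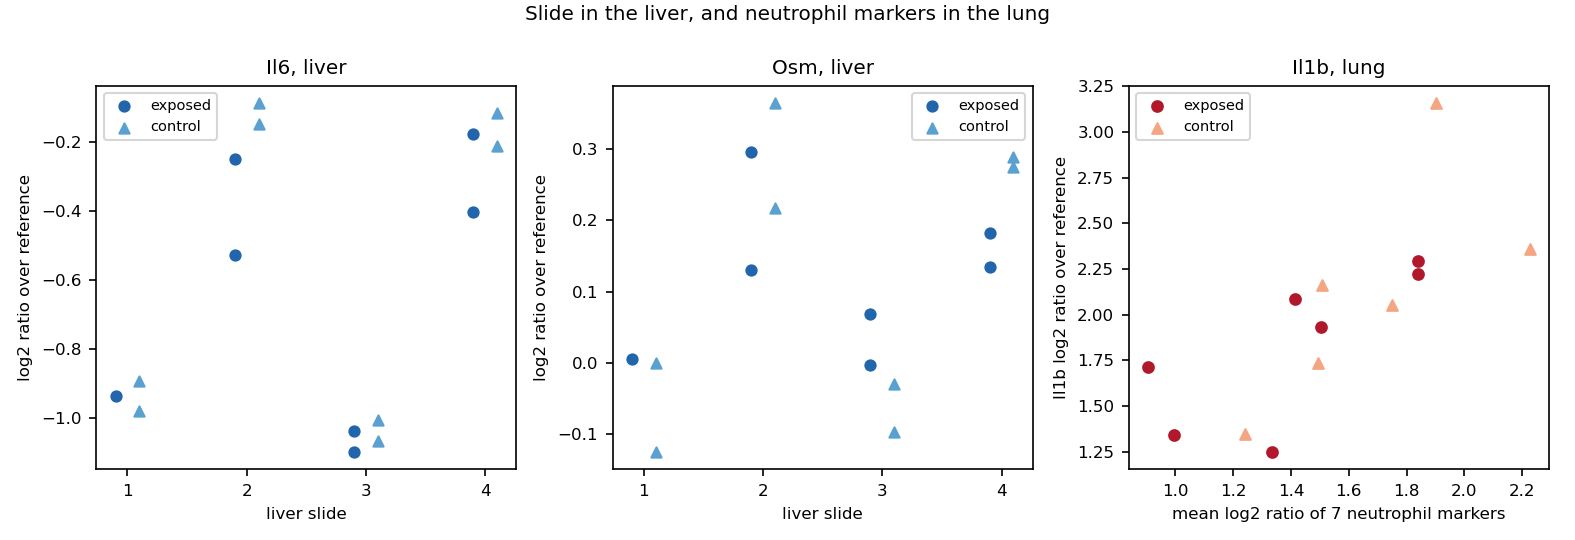
Left and middle, the log2 ratio of Il6 and of Osm (vertical axis) in each liver by slide (horizontal axis), circles exposed and triangles control; right, the log2 ratio of Il1b in each lung against the mean log2 ratio of 7 neutrophil markers. Liver Il6 lies between -1.10 and -0.89 on slides 1 and 3 and between -0.53 and -0.09 on slides 2 and 4 in both groups, and lung Il1b is higher in mice with higher neutrophil markers.

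The receptors, processing enzymes and relatives of the cytokines showed no called change in the lung. Of 17 receptor chains 0 were called and 14 were higher in exposed mice, with a median of 0.07. Over all probes 0.221% were called and 50.7% were higher. Of the chains 1, Ifngr2, had an unadjusted p under 0.05 (0.18, adjusted p = 0.5), which 7.07% of all probes had. The chains of the interleukin-10 receptor, Il10ra and Il10rb, came next at 0.12 and 0.13. Of 9 measured processing enzymes and soluble inhibitors 0 were called. Il18bp, which neutralises interleukin-18, was 0.14 higher (adjusted p = 0.648), and the inflammasome sensor Nlrc4, listed as Card12, had a log2 difference of -0.11 (adjusted p = 0.635). The inflammatory caspase Casp4 was at 0.13 (adjusted p = 0.785). Of 15 partner subunits and related cytokines 0 were called, and Il33, an epithelial alarmin listed as 9230117N10Rik, was 0.36 higher (unadjusted p = 0.000704, adjusted p = 0.162). Ltb, the membrane partner of lymphotoxin, was at 0.24 and Il1f6, above background on no lung array, at -0.08. Of 20 other interleukins 0 were called, and Il34, a ligand of the CSF-1 receptor listed as 2010004A03Rik, was 0.20 higher (adjusted p = 0.35), with Il19 at -0.10 and Il2 at -0.10. Il2 was above background on no lung array, and Il19 on 1 exposed and 0 control lung arrays.

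Of the signalling genes 1 was called, where 0.221% of all probes were called. Among 26 NF-kB genes, 21 were higher in exposed lung with a median of 0.06, 9 had an unadjusted p under 0.05, all of them higher, where 50.7% of all probes were higher and 3.7% higher at that p. The 1 called gene, Tnfaip3, which encodes the A20 brake on NF-kB, rose 1.31-fold (log2 0.39, adjusted p = 0.0348). Birc3 (0.34, adjusted p = 0.0725) and Nfkbiz (0.39, adjusted p = 0.106) followed it. The count of 1 went to 0 in the authors' own table of log ratios, in Cy5 alone, with median centring and with outlier spots kept in the background model, and to 3 with the processed signals. Of 10 JAK-STAT genes 0 were called. Socs1, a feedback inhibitor, was 0.32 higher (adjusted p = 0.671), and the kinases Jak1 and Tyk2 had log2 differences of -0.18 (adjusted p = 0.695) and 0.14 (adjusted p = 0.707).

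Some of the genes these cytokines are known to induce rose in exposed lung, where 0.199% of all probes were called higher. The lists were made with earlier results of these data known. The paper itself reports Saa1, Saa3, Lcn2, Ccl2 and Cxcl1 as raised in the lungs of these mice. The counts of called targets are therefore no test of whether such targets rose more often than other genes. Of 12 targets of interleukin-1 and TNF 4 rose in the lung: Lcn2 (1.70), Saa3 (2.23), Ccl2 (0.89) and, named after its value was seen, Cxcl1 (0.92), at adjusted p of 2.22e-08, 0.000309, 0.000237 and 0.00073. The median of the 12 was 0.04. The count was 2 with median centring or with outlier spots kept in the background model. Of 13 measured targets of interleukin-6 and oncostatin M 13 were higher, with a median of 0.53, and 9 had an unadjusted p under 0.05. Over all probes 50.7% were higher, and 3.7% were higher at that p. Of the 13 targets 2 rose, Timp1 (0.77, adjusted p = 0.00377) and Saa1 (1.19, adjusted p = 0.0103), while Serpina3n missed the threshold (0.53, adjusted p = 0.0617). This count was 0 under both of those settings. Between control tissues 12 of the 13 were called higher in liver, and all 6 measured hepatocyte markers were higher in these exposed lungs too (median 0.45, 0 called), whose part in the list's values was not tested. Of 15 targets of interferon gamma 0 were called, and Cxcl9 was 0.61 higher (adjusted p = 0.52), Cxcl10 0.30 and Irf8 0.12. In the liver 0 genes of any of these lists were called, and 5 of the 13 targets of interleukin-6 and oncostatin M had an unadjusted p under 0.05, all of them lower in exposed mice, where 2.53% of all probes passed in either direction.

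**Figure D5:**
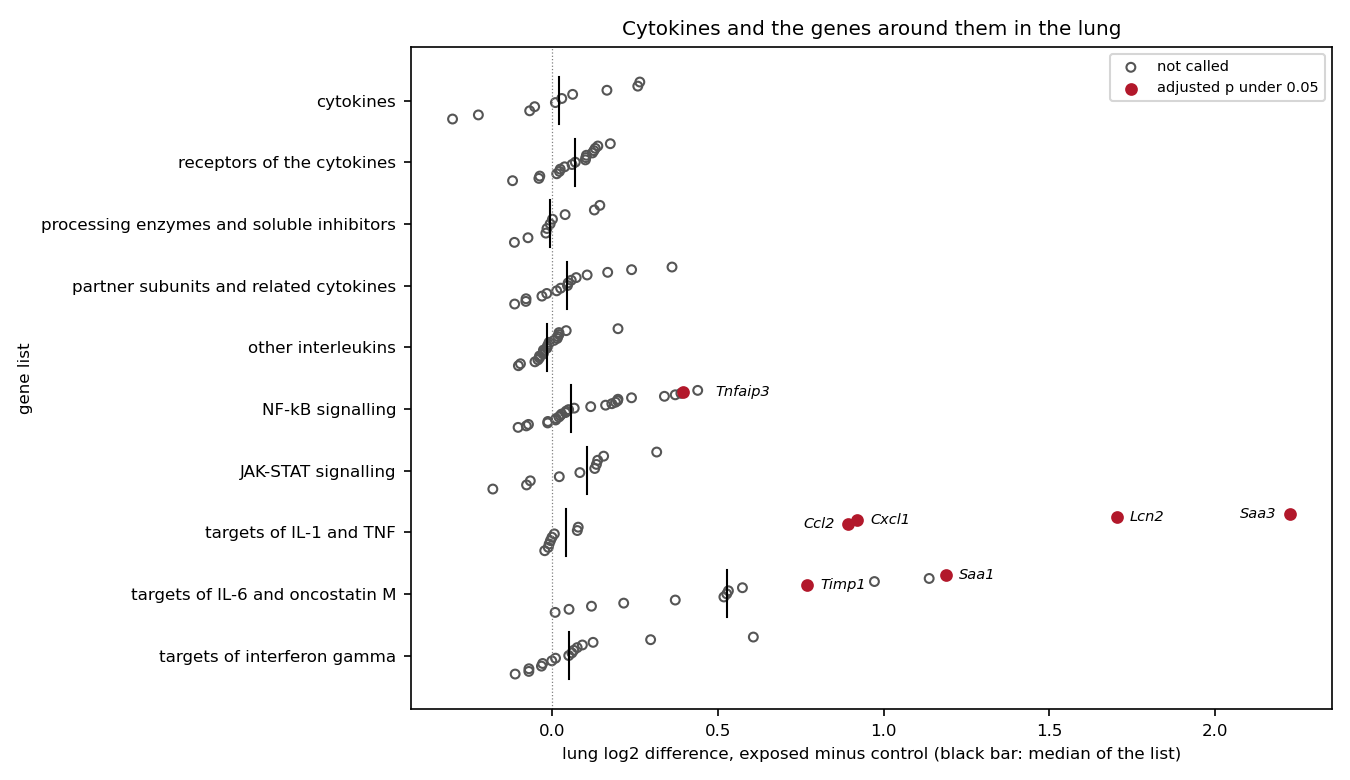
Lung log2 difference of exposed minus control mice (horizontal axis) for the cytokines and for the genes of 9 lists around them (vertical axis); open points were not called, red points had an adjusted p under 0.05, and black bars are list medians. The cytokines lie between -0.30 and 0.26, and the 7 called genes belong to the NF-kB list and the 2 lists of targets of interleukin-1 and TNF and of interleukin-6 and oncostatin M.

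Markers of the cells that make or answer these cytokines were measured as well, and only macrophage markers had called genes. Over all probes 50.7% were higher in exposed lung, 0.199% were called higher and 0.0219% called lower. At an unadjusted p under 0.05 the shares were 3.7% higher and 3.37% lower. Of 8 macrophage markers 2 were called higher in exposed lung, the scavenger receptors Marco (0.57) and Msr1 (0.52), and 1 lower, Siglec5 (-0.70), listed as Siglecf. The summed Cy5 signal of the 8 ran from 12130 to 18382 in exposed and from 7764 to 12391 in control lung. Their mean log2 ratio ran from 1.41 to 1.57 in exposed and from 1.25 to 1.51 in control lung. The groups overlapped on both scales. All 6 hepatocyte markers measured were higher in exposed lung, 2 of them at an unadjusted p under 0.05 and 0 called, with summed signals of 685 to 9540 against 519 to 1245. All 7 neutrophil markers measured (Ly6g was not named on the array) were lower, 0 at an unadjusted p under 0.05, with summed signals of 5126 to 23413 against 8676 to 42936. The paper reports a higher share of neutrophils in the lavage fluid of exposed mice. Lavage cells were not measured on these arrays, and marker RNA of whole lung is no cell count. T and NK cell markers and B cell markers had 0 called. The part of these cells in the cytokine values was not tested.

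Lung Il1b ran with the neutrophil markers. Across the 13 lung arrays, after the mean of each exposure group was taken out, Il1b and the mean log2 ratio of the 7 markers had a Pearson r of 0.71 (permutation p = 0.0103) and a Spearman rho of 0.79 (permutation p = 0.00359). Without the 2 mice farthest from the median of the markers r was 0.83. It was 0.75 among exposed and 0.71 among control mice and 0.67 with slide means taken out. Over the 80 relations computed, of 10 cytokines with 4 marker lists in 2 tissues, the adjusted p was 0.137 for r and 0.0718 for rho, so that the relation did not pass the correction.

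In the liver 3 of the 80 relations had an adjusted p under 0.05 for r and 0 for rho, where the lowest was 0.0656. Tnf ran with the B cell markers (r = 0.77, rho = 0.75, permutation p = 0.00072 and 0.00141, 0.74 without the 2 farthest mice, 0.67 with slide means taken out). Liver Tnf was above background on 6 of 7 exposed and 5 of 8 control arrays. Its SD between mice was 0.06 in exposed and 0.07 in control liver. The median SD among the spots of an array, which a level averages, was 0.11 in both groups. The part of array noise in this relation was not tested. Ifng ran with the macrophage markers (r = 0.77, rho = 0.67, permutation p = 0.00122 and 0.00816, 0.53 without the 2 farthest mice, 0.83 with slide means taken out). The third was Il6 with the T and NK cell markers. Il6 fell into separate slide bands, so no pooled value is given, and with slide means taken out r was 0.34. Control liver 32 had a summed neutrophil signal of 11119 where the other control livers had at most 2066, and its Il1b ratio of 1.27 lay within their range.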

How the data were processed

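RNA was read on 28 arrays of 2 colors, 13 of lung and 15 of liver, with 1 mouse on each. The authors deposited the scanner output of each array, whose spot signals and local backgrounds are intensity values that are not normalized (software 9.5.3.1 with build mm7 for lung, 10.1.1.1 with mm8 for liver), and a table of log2 ratios that the authors made by LOWESS. That table correlated at 0.929 to 0.993 (lung) and 0.936 to 0.970 (liver) with log2 ratios of the intensities, ran in the same direction (Cy5 over Cy3) and had column medians of -0.0434 to -0.0233. It served as an alternative. Its background correction is not given in the sources used here.

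Here, spots that the software had marked as outliers were removed first. The remaining median signals went through limma's normexp correction (offset 50) and a loess fit per array, control spots were dropped, and a probe's value was the mean of its spots. The test was limma's lmFit and eBayes, 2-sided, with Benjamini-Hochberg adjustment over all probes and a threshold of 0.05. The methods name MAANOVA, for which limma stood in. For single probes the mice were also split in every possible way (1716 in lung) for an exact permutation p. The packages limma (3.58.1), statmod (1.5.0) and, for reading, version 1.17.8 of data.table ran in R 4.3.3, and matplotlib 3.10.9 drew the figures. The method was tested on simulated data with known log2 shifts. Of shifts of 0.25 it called 36.7% in the lung, 38.3% in the liver and 11.7% for the difference of effects. Of shifts of 0.5 it called 91.4%, 87.1% and 67.1%.

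The genes and gene lists were chosen with earlier results of these data known. Named were every cytokine, at each of its probes, and from each of the other lists of pathway genes the 3 genes of lowest unadjusted p in the lung, at the probe of highest mean Cy5 signal. Of the gene names in the 15 other lists 5 were not found on the array. Cell markers were summed over the signals of their list after background subtraction, with correlations from 100000 permutations. Alternatives were another background model, none, the processed signals, median centring, the authors' table, the Cy5 channel alone, a filter on dim probes, slide as a fixed or random block, the mouse as a block and each array left out. Comparing control lungs with the control livers of single slides was added after the data were seen. Lung and liver RNA of the 12 shared mice pair by animal, and their deviations from the group means correlated at -0.072 to 0.215 (median 0.084). Where a probe was below background on all arrays of a group, no fold was given, apart from Il12b in the lung, which was given with a bound. The lung miRNA arrays were not used here.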

Additional observations from a re-analysis of the deposited data

Results flagged for a closer look

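In 40 groups of the reported probes (10 genes in 4 groups of mice), 1 mouse lay far from the rest of its group. The Osm log2 ratio of control lung 24 was 0.13, the nearest other control lung was at -0.02, and this gap made up 0.665 of the range of the 6 mice. Chance marks about 1 group in 20, so that 1 in 40 is not more than chance gives.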

How the results depend on the processing

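The count of called lung probes was 91 in the reported analysis, 15 with outlier spots kept in the background model and 6 with median centring, and 66 to 131 under the other alternatives (71 to 92 with 1 array left out). No liver probe was called under any setting (0 with each array left out). For the difference between the tissues' exposure effects the count was 58, against 5 with outlier spots kept in, 33 with processed signals, 12 with median centring, and 43 to 59 with 1 array left out. Between control lung and control liver it was 23974, with 19784 to 24931 under the alternatives and 23071 to 24045 with 1 array left out. With the mouse number as a replicate block the paired fits called 54 and 22850 probes, gave Il12b a difference of effects of 0.20 (adjusted p = 0.455 from limma) and Tnf one of 0.29 (adjusted p = 0.537), and changed the call of no cytokine. Calls of single cytokines that changed stand beside their results. In addition, between the tissues Il1a was called without background correction (-0.18, adjusted p = 0.0105) and in the authors' table (-0.18, adjusted p = 0.0101), Osm in Cy5 alone (-0.29, adjusted p = 0.0425), and Il12b, which was above background in neither control tissue, without background correction, with processed signals, in the authors' table and in Cy5 alone (0.12, 0.86, 0.12 and 0.11). Il10 was no longer called with outlier spots kept in (-0.34, adjusted p = 0.0889). The cause of these changes was not tested.

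The remaining changes of sign were of differences that were called neither in the reported analysis nor under the alternative. In the lung, Il1a was -0.0397 with outlier spots kept in, -0.0016 with median centring, -0.0052 in Cy5 alone and -0.0263 with slide as a fixed block. Ifng was -0.291 with outlier spots kept in, -0.142 with processed signals and -0.006 with the slide block. Il10 was 0.204 and 0.0148 under the first pair of settings, and Osm was 0 in Cy5 alone. In the liver, outlier spots kept in gave Il1b 0.0785 and Il18 0.421, processed signals gave Tnf 0.0071, and median centring gave Il1rn 0.0315, Tnf 0.0434, Il6 0.003, Il18 0.129 and Il10 0.0197. Osm was -0.0162 with slide as a fixed and -0.0052 as a random block. For the difference of effects, outlier spots kept in gave Ifng -0.287 and Il10 0.406, processed signals gave Il1a 0.522, Il1b 0.025 and Il10 0.0358, and Il1a was 0.0251 without background correction and 0.0261 in the authors' table. Between the tissues, Tnf was -0.102 with outlier spots kept in, -0.0011 without background correction, -0.0581 in the authors' table, and -0.0161 and -0.0633 against the livers of slides 1 and 2. Cy5 alone gave Il1a 0.0196 and Il1rn -0.0044, slide 1 gave Il1a 0.066 and Osm 0.0323, slide 3 gave Osm 0.0334, and slide 4 gave Il1rn -0.0846.

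With 1 array left out at a time the sign changed for 7 uncalled values. The lung difference of Il1a ranged from -0.0175 (without control 26) to 0.0358 and that of Ifng from -0.0344 (without control 24) to 0.0994. In the liver Il1rn ranged from -0.102 to 0.0422 (without control 37), Il6 from -0.145 to 0.0081 (without exposed 19) and Osm from -0.0291 (without control 24) to 0.0406. The difference of effects of Il1b ranged from -0.226 to 0.135 (without lung control 29), and the tissue difference of Tnf from -0.016 (without lung control 34) to 0.0527.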
